A study of Mus musculus with 4 samples.

Results

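The maternal and the paternal genome of Ezh2m-/p+ mouse zygotes were compared gene by gene for H3K27me2. Every peak of the maternal and of the paternal peak list of this genotype was used, and each peak was counted for the gene identifier that the lists give it, which is the gene with the nearest transcription start site. The 2 lists together named 9821 genes, of the 11472 named in any of the 4 zygote lists of the series. All Ezh2m-/p+ values come from 1 H3K27me2 library and 1 input library, and both parental genomes were read from that same library.

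Ezh2m-/p+ zygotes came from C57BL/6J females of the genotype Ezh2 fl/fl; Gdf9-Cre, whose eggs were fertilized in vitro with PWK/PhJ sperm. Gdf9-Cre acts in growing oocytes, so the egg lacked maternal EZH2 while the sperm brought an intact allele. The Ezh2m+/p+ zygotes, which are set beside them here, came from eggs of Ezh2 fl/fl females without Cre and the same sperm strain. Zygotes were pooled at the PN5 stage, late in the first cell cycle, with their polar bodies removed. Reads were given to a parent by the base differences between the strains, so parent and strain cannot be told apart in any value below.

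H3K27me2 is the dimethylated form of lysine 27 of histone H3. Polycomb repressive complex 2 (PRC2) writes the mono-, di- and trimethylated forms through its catalytic subunit EZH2 or EZH1, with EED and SUZ12 as partners. The trimethylated form marks silent developmental genes, whereas the dimethylated form is known to spread over broad stretches of chromatin. In the zygote the maternal genome carries chromatin from the oocyte, and the paternal genome is packaged anew after the protamines of sperm are removed.

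A few stretches of the peaks are shown first, because the comparison turns on whether both parents had a peak at the same place, in the same gene or in neither. Each is the central 200 bases of the named peak or shared stretch, on the plus strand of GRCm38 (RefSeq, C57BL/6J), with CpG dinucleotides in capitals. PWK/PhJ bases are not shown. None of these windows touched a RefSeq exon.
Trim3, shared by a maternal and a paternal peak, chr7:105629101-105629300: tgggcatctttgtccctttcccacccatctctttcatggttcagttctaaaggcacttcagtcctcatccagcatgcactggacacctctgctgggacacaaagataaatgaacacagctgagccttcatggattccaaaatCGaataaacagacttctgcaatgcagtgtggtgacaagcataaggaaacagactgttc
Zmynd8, shared by a maternal and a paternal peak, chr2:165864401-165864600: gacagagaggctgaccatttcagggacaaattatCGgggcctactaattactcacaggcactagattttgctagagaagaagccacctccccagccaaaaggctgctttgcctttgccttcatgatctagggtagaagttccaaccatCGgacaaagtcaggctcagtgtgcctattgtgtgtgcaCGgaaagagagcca
Tns3, maternal peak, chr11:8616301-8616500: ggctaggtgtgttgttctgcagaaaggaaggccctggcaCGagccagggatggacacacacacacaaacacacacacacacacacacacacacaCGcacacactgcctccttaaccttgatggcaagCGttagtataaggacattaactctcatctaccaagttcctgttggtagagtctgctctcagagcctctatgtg
Tns3, paternal peak, chr11:8532001-8532200: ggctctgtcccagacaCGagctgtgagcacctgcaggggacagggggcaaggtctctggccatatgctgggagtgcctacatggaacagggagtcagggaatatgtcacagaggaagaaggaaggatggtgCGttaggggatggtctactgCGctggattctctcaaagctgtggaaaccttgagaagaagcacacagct
Ptprg, maternal peak in a gene of the maternal list only, chr14:11717601-11717800: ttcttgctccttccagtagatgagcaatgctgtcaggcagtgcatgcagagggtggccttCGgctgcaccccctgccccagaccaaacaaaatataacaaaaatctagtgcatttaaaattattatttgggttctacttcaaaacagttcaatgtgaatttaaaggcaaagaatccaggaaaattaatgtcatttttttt
Ptprd, paternal peak in a gene of the paternal list only, chr4:76531501-76531700: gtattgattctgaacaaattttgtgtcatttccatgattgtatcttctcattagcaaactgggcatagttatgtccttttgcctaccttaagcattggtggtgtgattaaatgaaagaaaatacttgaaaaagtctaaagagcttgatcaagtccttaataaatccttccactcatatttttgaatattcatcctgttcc
The Ptprd window held 0 CpGs and the Ptprg window 1, and the windows shared by both parents held 1 in Trim3 and 3 in Zmynd8. The whole Ptprg peak had a GC content of 42.2% with 63 CpGs in 5799 bp, and the whole Ptprd peak 38.7% with 16 in 3999 bp.

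Most genes had peaks of a single parent. The 9606 maternal peaks named 5326 genes and the 22823 paternal peaks 6037. Of the 9821 genes, 3784 were in the maternal list only (38.5%, 95% Wilson interval 37.6 to 39.5%), 4495 in the paternal list only (45.8%, 44.8 to 46.8%) and 1542 in both (15.7%). The shared genes made up 29.0% of the maternal-list and 25.5% of the paternal-list genes. Of all 21631 RefSeq protein-coding genes on chromosomes 1 to 19 and X, 15% were in the maternal list only, 17.7% in the paternal list only and 6.08% in both. The intervals cover counting error only, and no p-value was computed, since each genotype had a single library and genes are not replicates.

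The order of the maternal-only and paternal-only shares turned in a shorter paternal list, which differs from the full one both in its size and in the folds it keeps. With the paternal list cut to the 9606 peaks of largest fold, the maternal-only share was 52.3% and the paternal-only share 34.4%. The shared genes were 13.3% of the total in that setting. In the Ezh2m+/p+ lists, 34.1% of 7827 genes were in the maternal list only, 53.1% in the paternal list only and 12.8% in both.

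The 3 sets had similar shares of gene biotypes and differed in gene length. Protein-coding genes were 85.7% of the maternal-only, 85.2% of the paternal-only and 85.3% of the shared genes. Long non-coding RNA genes made up 10.5%, 10.1% and 11.8%, and microRNA genes 2.56%, 3.07% and 2.40%. The median span of the protein-coding members was 35.6 kb for the maternal-only, 23.1 kb for the paternal-only and 74.5 kb for the shared genes, against 17.3 kb over all protein-coding genes. Of the 7741 protein-coding genes under 10 kb, 7.49% were maternal only, 13.9% paternal only and 1.91% shared. Of the 722 genes of 250 kb or more, the shares were 25.2%, 24.4% and 28.9%. Between 50 and 100 kb the maternal-only and paternal-only shares were 24.0% and 22.5%, and between 100 and 250 kb they were 29.0% and 21.1%. Short genes were thus more often paternal only and genes of 100 to 250 kb more often maternal only.

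Genes of the paternal list had more peaks each. A paternal-list gene had a mean of 3.78 peaks (median 2, highest 155) and a maternal-list gene a mean of 1.80 (median 1, highest 24). A single peak was all that 63.7% of the maternal-list and 38.9% of the paternal-list genes had. There were 50 genes with 10 or more maternal peaks, which held 6.68% of the maternal peaks, and 419 genes with 10 or more paternal peaks, which held 37.6% of the paternal peaks. With the paternal list cut to 9606 peaks, the paternal mean was 2.48, still above the maternal 1.80.

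**Figure D1:**
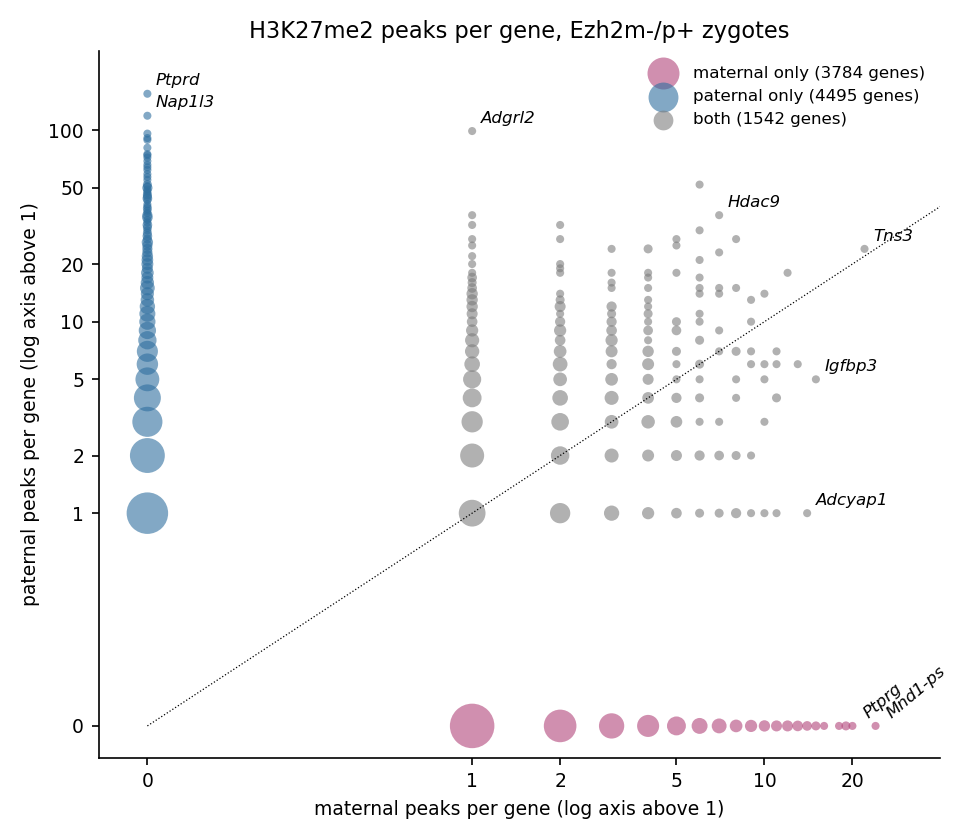
Maternal peaks (x axis) against paternal peaks (y axis) per gene in Ezh2m-/p+ zygotes, on axes that are logarithmic above 1. Larger dots hold more genes, colours give the set, and the dotted line marks equal numbers. The 3784 maternal-only genes lie along the bottom and reach 24 peaks, the 4495 paternal-only genes lie along the left and reach 155, and Tns3 (22 and 24) is close to the line.

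Among maternal-only genes, the 10 with most peaks had 14 to 24 maternal and 0 paternal peaks. Ptprg, a receptor tyrosine phosphatase, had 20 maternal peaks, of which 19 touched its body on chromosome 14 (11553440 to 12242041). Lrrn3, a leucine-rich repeat protein of neurons, had 19, and none of them touched its body. Glis3, a zinc finger transcription factor of the pancreas and kidney, also had 19, with 13 in the body, and Cdkal1, which modifies transfer RNA, had 18 with 17 in the body. Magi2, a scaffold of synapses, and Phf21a, a reader of unmethylated H3K4, had 15 each. Dst, a linker of the cytoskeleton, and Fhit, which lies at a fragile site, had 14 each. The pseudogene Mnd1-ps was named by 24 peaks and the microRNA gene Mir3090 by 16, in both cases without a peak on the gene itself.

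Of these 10 genes, Mnd1-ps was the only one with paternal peaks in the Ezh2m+/p+ lists, where it had 6 maternal and 3 paternal peaks. There, Mir3090 had 15 maternal peaks, Cdkal1 12, Ptprg and Magi2 9 each, and Fhit 1.

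Among paternal-only genes, the 10 with most peaks had 69 to 155 paternal and 0 maternal peaks, and 4 of them lie on chromosome X. Ptprd, a receptor tyrosine phosphatase of synapses, had 155 peaks, 139 of which touched its body on chromosome 4 (75941237 to 78211742). Rabgap1l, a regulator of Rab GTPases, had 89 with 84 in the body. The 3 other autosomal genes with a long body, Klhl1 (91), Ndst4 (81) and Tmtc2 (74), had 32, 35 and 39 of their peaks in it. On the X chromosome, Nap1l3 had 119 peaks, Pcdh11x, a protocadherin, 96, Gm382 72 and Cldn34c4, a claudin, 69. Peaks of Nap1l3 and Cldn34c4 were not on the gene itself, and 114 of 119 and 64 of 69 were annotated as distal intergenic. Spertl, on chromosome 14 beside Klhl1, was named by 75 peaks with 1 in its body.

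All 10 of these genes had paternal peaks and 0 maternal peaks in the Ezh2m+/p+ lists too, from 39 for Cldn34c4 to 95 for Rabgap1l.

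Genes with many peaks of both parents were led by Tns3, the focal adhesion protein tensin 3, with 22 maternal and 24 paternal peaks over 968 kb of chromosome 11. Of those, 8 maternal and 8 paternal peaks touched its body. Arhgap26, a GTPase activator, had 12 maternal and 18 paternal peaks, and Rbms3, an RNA-binding protein, had 10 and 14. Cacna2d3, a calcium channel subunit, had 9 and 13, and the kinase gene Mast4 had 9 and 10. Hdac9, a histone deacetylase, had 7 and 36. Api5 (8 and 27), Cntnap5a (8 and 15), Actr3 (7 and 23) and Gramd3 (7 and 14) completed the 10 genes with the largest smaller number.

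Some shared genes leaned strongly to 1 parent. Adcyap1, the neuropeptide PACAP, had 14 maternal peaks and 1 paternal peak, all annotated as distal intergenic. Igfbp3, an IGF-binding protein, had 15 and 5, Ank3, the membrane scaffold ankyrin-G, 11 and 1, Nrg2, an ErbB receptor ligand, 10 and 1, and the non-coding RNA 4833428L15Rik 9 and 1. In the other direction, Adgrl2, a latrophilin, had 1 maternal and 99 paternal peaks. Lrrc4c, a postsynaptic adhesion protein, had 1 and 36, Klf5, a transcription factor of the trophectoderm, 1 and 32, and Gm28590 2 and 32.

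Being named in both lists rarely meant a peak at the same place. Maternal and paternal peaks overlapped by at least 1 bp in 41 stretches with a median of 399 bp, and in each of the 41 both peaks named the same gene. These stretches lay in 39 of the 1542 shared genes (2.53%). In the others the nearest maternal and paternal peaks of a gene were apart, and over all shared genes the smallest gap had a median of 19.2 kb (quartiles 5.80 and 48.6 kb). It was under 10 kb in 523 genes (33.9%) and 100 kb or more in 174 (11.3%). With a reciprocal overlap of 50%, 5 stretches were left.

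The longest shared stretch, 1999 bp in the first intron of Trim3, a ubiquitin ligase, lay under a maternal peak at chr7:105627801-105630199 (fold 6.88) and a paternal peak at chr7:105628201-105630199 (fold 78.8). Next were 4930547E08Rik with 1799 bp, and E2f6, a repressor of the E2F family that works with Polycomb proteins, with 1399 bp. The shared stretch of Zmynd8, a reader of acetylated histones, was also 1399 bp and was annotated to a promoter in both lists. The peaks of Ypel4, which shared 999 bp, were annotated to a promoter in both lists too. Methig1 and Ldb2, a LIM-domain cofactor, had 1199 bp each, Tmem121 and Slc11a2, an iron transporter, 999 bp each, and Dars, the aspartyl-tRNA synthetase, was 1 of several with 799 bp.

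Over all peaks, the nearest peak of the other parent was at a median of 250 kb from maternal and 298 kb from paternal peaks. Genes of a single list lack a peak of the other parent by definition, so their gaps are longer. From a peak of a maternal-only gene, the nearest paternal peak was at a median of 639 kb (quartiles 199 and 2077 kb), and 40.7% were at 1 Mb or more. From a peak of a paternal-only gene, the nearest maternal peak was at a median of 546 kb (194 and 1655 kb). For peaks of shared genes, the medians were 33.6 kb from maternal and 55.8 kb from paternal peaks. A peak of the other parent within 10 kb was listed for 0.606% of the peaks of maternal-only genes and 0.347% of those of paternal-only genes.

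**Figure D2:**
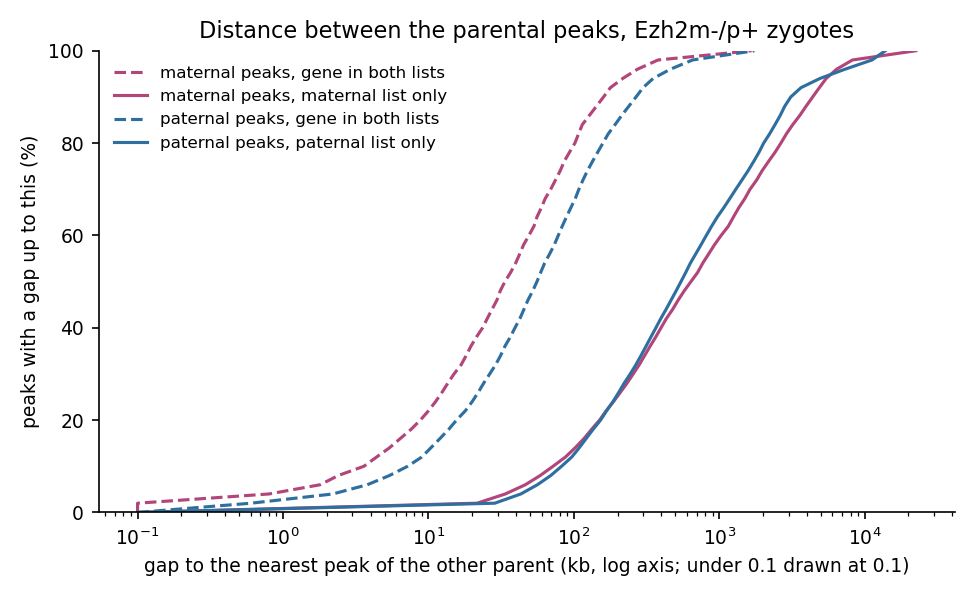
Share of peaks (y axis, %) whose nearest peak of the other parent is at or within a distance (x axis, kb, logarithmic), in Ezh2m-/p+ zygotes. Solid lines are peaks of genes in a single list (medians 639 kb for maternal and 546 kb for paternal peaks), and dashed lines are peaks of genes in both lists (33.6 and 55.8 kb).

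Genes of a set followed each other along the chromosomes. When the genes with a peak were put in order of position, the next gene was also maternal only for 73.1% of the maternal-only genes, although maternal-only genes were 38.5% of all. For paternal-only genes the next was paternal only in 71.9% of cases, against 45.7% of all. A shared gene was followed by a maternal-only gene in 25.8%, a paternal-only gene in 41.1% and another shared gene in 33.1% of cases. Unbroken runs of 10 or more genes numbered 76 for the maternal-only and 74 for the paternal-only set and held 45.0% and 39.0% of their genes, while no run of shared genes was longer than 8. Each peak names 1 gene, that of the nearest start site. A broad domain can therefore name several neighbours only if it was listed as several peaks. The widest listed peak was 17599 bp in the maternal and 101999 bp in the paternal list.

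**Figure D3:**
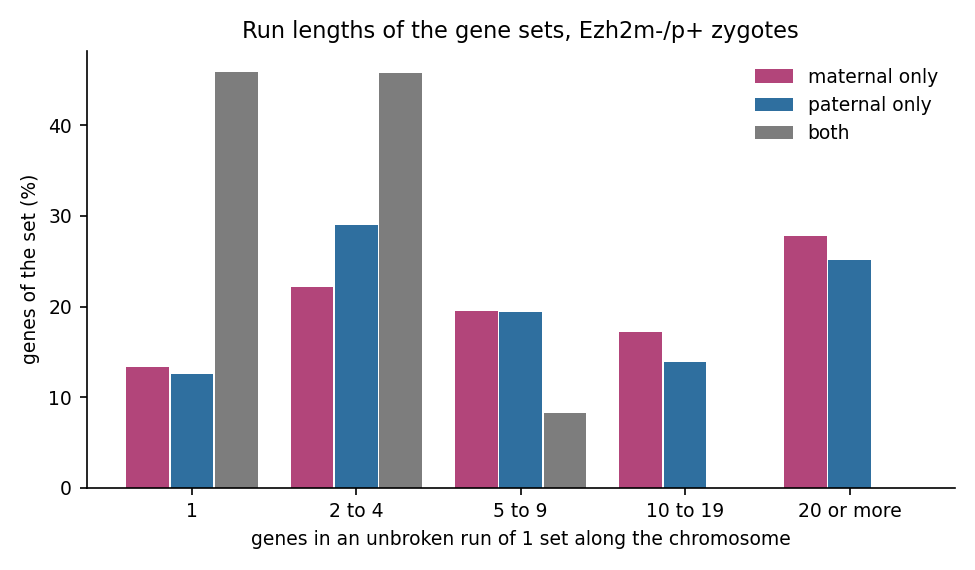
Genes of each set (y axis, % of the set) by the number of genes in the unbroken run of that set in which they lie (x axis), in Ezh2m-/p+ zygotes. Runs of 20 or more genes hold 27.8% of the maternal-only and 25.2% of the paternal-only genes and none of the genes in both lists, of which 45.9% stand alone.

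The longest maternal-only run held 96 genes from Celf2 to Tbc1d13 on chromosome 2 (6.54 to 30.2 Mb), with 201 maternal and 0 paternal peaks within it. The same interval had 174 maternal and 0 paternal peaks in the Ezh2m+/p+ lists. The next, 70 genes from Plekha6 to Xpr1 on chromosome 1 (133 to 155 Mb), had 210 maternal and 0 paternal peaks, and 77 and 0 in Ezh2m+/p+. The third held 61 genes on chromosome 9 (54.9 to 65.5 Mb), with 122 maternal and 0 paternal peaks, and 47 and 0 in Ezh2m+/p+. A one-parent run is made of genes without a peak of the other parent. The 0 of the other parent in Ezh2m-/p+, here and below, therefore follows from how the runs were defined. The Ezh2m+/p+ counts were not used to define the runs.

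The 3 longest paternal-only runs covered fewer megabases than the 3 longest maternal-only runs and held more peaks. The first held 119 genes from Gm6498 to Thtpa on chromosome 14 (48.2 to 55.1 Mb), with 567 paternal and 0 maternal peaks, and 668 and 0 in Ezh2m+/p+. The next held 89 genes on chromosome 1 (171 to 177 Mb), with 492 paternal and 0 maternal peaks, and 515 and 1 in Ezh2m+/p+. On chromosome 4 (136 to 141 Mb), 79 genes from 1700029M20Rik to Padi2 had 445 paternal and 0 maternal peaks, and 523 and 2 in Ezh2m+/p+. Among shared genes, a run of 7 genes on chromosome 11 (7.21 to 11.5 Mb), from Igfbp3 through Tns3 to Spata48, had 57 maternal and 68 paternal peaks.

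The balance of the sets varied among chromosomes. Paternal-list genes outnumbered maternal-list genes on 12 of 20 chromosomes, although paternal peaks outnumbered maternal peaks on all 20. Chromosome 8 had the largest paternal-only share (69.3% of its 459 genes with a peak), followed by chromosome 17 (58.8%) and chromosome 4 (55.2%). Chromosome 16 had the largest maternal-only share (56.5% of 255 genes), followed by chromosome 10 (53.3%). Chromosome 18 had the largest shared part (27.2% of 331 genes). On chromosome X, 985 paternal and 119 maternal peaks named 113 and 86 genes.

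The authors' table also gives how much of a chromosome had reads of each parent. Maternal reads of Ezh2m-/p+ zygotes covered 20.8 to 45.1% of a chromosome and paternal reads 1.60 to 5.47%. Over the 20 chromosomes, which share 1 library, Spearman's rank correlation was -0.67 between maternal coverage and the paternal-only share, and -0.54 between paternal coverage and the maternal-only share. The other values were 0.48 for maternal coverage with maternal-list genes, 0.04 with paternal-list genes, 0.46 with the maternal-only share and 0.50 with the shared part. For paternal coverage they were 0.58 with paternal-list genes, 0.21 with maternal-list genes, 0.37 with the paternal-only share and 0.27 with the shared part. The part of coverage in the gene sets was not tested.

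A larger share of paternal-only than of maternal-only genes had a peak near a start site. A peak within 3 kb of the start site was listed for 1123 of the 3784 maternal-only genes (29.7%) and 2228 of the 4495 paternal-only genes (49.6%). Among shared genes, 19.7% had a maternal and 30.4% a paternal promoter peak. The share of peaks annotated to promoters was nevertheless similar, close to 19% for maternal peaks of maternal-only genes and 19.3% for paternal peaks of paternal-only genes, the latter having more peaks each. With the paternal list cut to 9606 peaks the shares of genes were 28.9% and 33.7%.

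Promoter peaks of both parents were listed for 120 genes, which were 8.41% of the genes with a maternal and 4.45% of those with a paternal promoter peak. They included Hdac4, a histone deacetylase, Smarca2, the ATPase of a chromatin remodelling complex, Rab28, Gramd1b, Slc1a2, a glutamate transporter, and Clasp1. In Smarca2 the maternal peak was at chr19:26705601-26708199 and the paternal one at chr19:26679601-26680999, without an overlap. These genes were picked after their values were seen, as those with many peaks in all.

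The base composition of the peaks differed modestly between the parents. Maternal peaks had a median GC content of 45.6% (quartiles 43.2 and 48.3%) and paternal peaks 44.0% (40.8 and 47.4%), against 41.4% over windows of 2000 bp across chromosomes 1 to 19 and X. The observed to expected ratio of CpG was 0.179 in maternal peaks, 0.172 in paternal peaks and 0.162 in the windows. For promoter peaks the median ratio was 0.208 and 0.222. The median GC content of distal intergenic peaks was 45.0% in the maternal and 42.9% in the paternal list. The genes' own RefSeq promoters (250 bases before to 50 after the start, GRCm38) differed more. A CpG ratio of 0.6 or more was found in 61.2% of the promoters of maternal-only, 50.5% of paternal-only and 62.7% of shared protein-coding genes, against 48.9% of all. A promoter was matched for 79.5%, 79.3%, 74.3% and 79.9% of the genes in these groups.

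The gene classes leaned to 1 parent or the other around the background of all protein-coding genes, of which 21.1% were in the maternal and 23.8% in the paternal list. Of 38 classes, 13 had a larger share of members in the maternal list, 24 in the paternal list and 1 had equal shares. With the paternal list cut to 9606 peaks, 23 classes had the larger share in the maternal list. The Wilson intervals of the 2 shares did not overlap in 5 classes, which were the olfactory receptors, the vomeronasal receptors, the zinc finger proteins, the keratins with their associated proteins and the predicted Gm gene models, each with more members in the paternal list. The intervals treat members as independent, and both shares are of the same genes. Of the paternal-only members, 143 of 167 olfactory and 18 of 27 vomeronasal receptors were in runs of 10 or more paternal-only genes. In the cut list the olfactory and vomeronasal receptors still had separate intervals. The zinc finger proteins (a maternal minus paternal difference of -1.94 percentage points, against -11.0 in the full list) and the keratins (-5.41 against -12.6) kept the direction without separate intervals. Integrins (38.7), solute carriers (13.2) and RIKEN genes (5.05) had separate intervals there on the maternal side. The intervals of the keratins also overlapped with folds above 10, with peaks longer than 2000 bp, with gene bodies and without distal intergenic peaks, those of the Gm models with folds above 10, and those of the vomeronasal receptors with gene bodies. RIKEN genes had separate intervals on the paternal side with gene bodies (-5.14). The direction turned in the cut list for the Gm models and for the secreted ligands, the cytochrome P450 and ADAM protease genes, the ribosomal protein, Rab, microRNA and RIKEN genes and the pluripotency factors. It turned when peaks were counted for genes whose body they touch in the forkhead, other patterning, potassium channel, solute carrier and oocyte classes. It turned with peaks longer than 2000 bp for the glutamate receptors (-7.69 to 3.85) and the oocyte genes, and without distal intergenic peaks for the potassium channels.

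**Figure D4:**
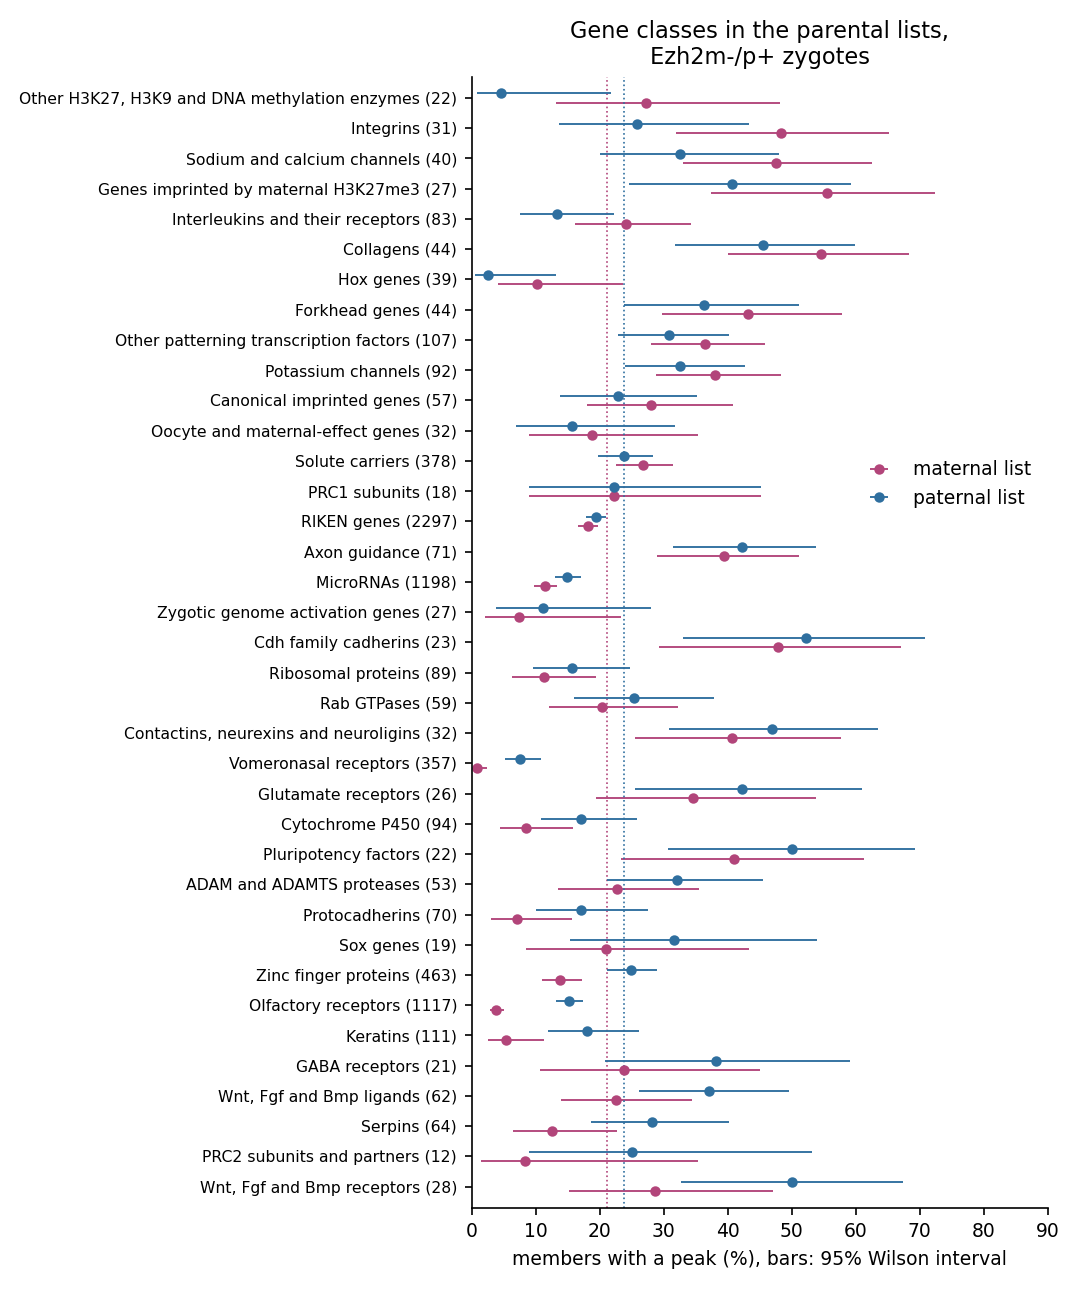
Members of each gene class with a peak (x axis, %, with 95% Wilson intervals) in the maternal and the paternal list of Ezh2m-/p+ zygotes, with the number of members beside the name. The dotted lines are the shares over all protein-coding genes (21.1% maternal and 23.8% paternal), and classes are ordered from the largest maternal excess at the top to the largest paternal excess at the bottom. The class of predicted Gm models is not drawn.

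Olfactory and vomeronasal receptors, whose genes are short, were below the share of all protein-coding genes in both lists, and more so in the maternal one. They were at 3.76% and 0.840% in the maternal list and 15.1% and 7.56% in the paternal list. Of 1117 olfactory receptor genes, which code for the odorant receptors of sensory neurons, 40 were maternal only, 167 paternal only and 2 in both. Of the paternal-only receptors, 143 (85.6%) were in runs of 10 or more paternal-only genes, against 39.0% of all paternal-only genes. A single run held 36 of these receptors. Of the 40 maternal-only receptors, 15 (37.5%) were in runs of 10 or more maternal-only genes, against 45.0% of all maternal-only genes. Olfr1507 had 20 paternal peaks and Olfr16 14, while Olfr164 led the maternal side with 7. Of 357 vomeronasal receptor genes, which code for pheromone receptors, 3 were maternal only and 27 paternal only. Vmn1r67 had 13 paternal peaks and Vmn1r66 10.

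Zinc finger genes were at 13.8% in the maternal and 24.8% in the paternal list, against 21.1% and 23.8% of all protein-coding genes. Keratins were at 5.41% and about 18% and cytochrome P450 genes at 8.51% and 17.0%. The intervals of the parents overlapped for the cytochrome P450 genes (4.38 to 15.9% and 10.8 to 25.9%). Of 463 zinc finger genes, 43 were maternal only, 94 paternal only and 21 in both, and 25 of the paternal-only genes lie on chromosome 7. Zfp536, a repressor of neuronal differentiation, had 1 maternal and 22 paternal peaks and Zfp438 5 maternal and 0 paternal peaks. Of 111 genes for keratins, the filaments of epithelia, and keratin-associated proteins, 5 were maternal only, 19 paternal only and 1 in both. Krtap4-6 had 6 and Krt19 5 paternal peaks. Of 64 serpins, 6 were maternal only, 16 paternal only and 2 in both, and 8 of the paternal-only serpins lie in a single run. Serpins were at 12.5% in the maternal list (interval 6.47 to 22.8%) and 28.1% in the paternal list (18.6 to 40.1%), with overlapping intervals. Of 94 cytochrome P450 genes, 8 were maternal only and 16 paternal only.

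Hox genes, transcription factors of the body plan, were at 10.3% in the maternal list (interval 4.06 to 23.6%) and 2.56% in the paternal list (0.454 to 13.2%), against 21.1% and 23.8% of all protein-coding genes. Of 39 Hox genes, 4 were maternal only (Hoxc4, with 2 peaks, and Hoxc6, Hoxb5 and Hoxb1, with 1 each) and 1 was paternal only (Hoxd8, with 1). Of 44 forkhead genes, 9 were maternal only, 6 paternal only and 10 in both (43.2% in the maternal and 36.4% in the paternal list). Foxn3 had 10 maternal and 0 paternal peaks, whereas Foxc1 had 2 and 12. Of 19 Sox genes, 3 were maternal only, 5 paternal only and 1 in both. Sox11, a factor of neural progenitors, had 32 paternal and 0 maternal peaks. Of 107 other patterning factors, 28 were maternal only, 22 paternal only and 11 in both (36.4% and 30.8%). Otx2, needed for the head, had 26 paternal peaks and Pax3, of the neural crest, 6 and 5.

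Secreted signals were at 22.6% in the maternal list (interval 14.0 to 34.4%) and 37.1% in the paternal list (26.2 to 49.5%), and their receptors at 28.6% (15.3 to 47.1%) and 50% (32.6 to 67.4%), against 21.1% and 23.8% of all protein-coding genes. The intervals of the parents overlapped for both classes, and the direction turned for the signals when the paternal list was cut to 9606 peaks. Of 62 Wnt, Fgf, Bmp and Gdf ligands, 11 were maternal only, 20 paternal only and 3 in both, and Wnt16 had 3 maternal and Wnt4 9 paternal peaks. The class also holds Bmp1, a procollagen protease and not a ligand, with 5 maternal peaks. Of 28 receptors of these signals, 4 were maternal only, 10 paternal only and 4 in both. The activin receptor Acvr2a had 11 maternal and 0 paternal peaks, and Fzd7, a Wnt receptor, 10 paternal and 0 maternal peaks.

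Adhesion and matrix genes leaned both ways, with overlapping intervals of the parents in each class. Beside the 21.1% and 23.8% of all protein-coding genes, the maternal and paternal shares were 48.4% and 25.8% for integrins, 54.5% and 45.5% for collagens, 47.8% and 52.2% for cadherins, 7.14% and 17.1% for protocadherins and 22.6% and 32.1% for the ADAM proteases. Of 31 integrins, 12 were maternal only, 5 paternal only and 3 in both. Itga8 had 5 maternal peaks, Itga2, a collagen receptor chain, 4 and Itga4 3, and Itga6, a laminin receptor chain, had 16 paternal peaks. Of 44 collagens, 14 were maternal only, 10 paternal only and 10 in both. Col11a1 had 39 paternal peaks, and the maternal-only collagens had at most 2 each. Of 23 cadherins of the Cdh family, classical or not, 5 were maternal only, 6 paternal only and 6 in both, and Cdh7 had 1 maternal and 12 paternal peaks. Of 70 protocadherins, 2 were maternal only, 9 paternal only and 3 in both, with 12 maternal peaks in Pcdh15, a protein of hair cell links, against 96 paternal peaks in Pcdh11x. Of 53 ADAM and ADAMTS proteases, 10 were maternal only, 15 paternal only and 2 in both, and Adamts18 had 35 paternal peaks.

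Genes for channels and transmitter receptors include many long genes, with a median span of 104062 bp for the sodium and calcium channels and 298228 bp for the glutamate receptors. Sodium and calcium channels were at 47.5% in the maternal and 32.5% in the paternal list, and GABA receptors at 23.8% and 38.1%, against 21.1% and 23.8% of all protein-coding genes. The intervals of the parents overlapped for both classes, from 32.9 to 62.5% and 20.1 to 48.0% for the channels and from 10.6 to 45.1% and 20.8 to 59.1% for the GABA receptors. Of 40 sodium and calcium channel subunits, 11 were maternal only, 5 paternal only and 8 in both. Cacna1e had 4 maternal and 0 paternal peaks, Cacna1c, of the L-type channel, 5 and 2, and Cacna1a 1 and 15. Of 92 potassium channel genes, 22 were maternal only, 17 paternal only and 13 in both (38.0% and 32.6% in the maternal and paternal list). Kcnma1 had 11 maternal and 0 paternal peaks and Kcnh1 1 and 25. Of 26 glutamate receptors, 5 were maternal only, 7 paternal only and 4 in both, with 7 maternal peaks in Grid1 and 8 paternal peaks in Grin2b. Of 21 GABA receptors, 3 were maternal only, 6 paternal only and 2 in both.

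Axon guidance genes were at 39.4% in the maternal and 42.3% in the paternal list and the contactin group at 40.6% and 46.9%, above the 21.1% and 23.8% of all protein-coding genes, and their median spans were 53374 and 352912 bp. Of 71 axon guidance genes, 16 were maternal only, 18 paternal only and 12 in both. Nrp2 had 5 maternal and 0 paternal peaks, Ephb2 20 paternal and 0 maternal peaks and Epha4, an ephrin receptor, 5 and 25. Of 32 contactins, neurexins and neuroligins with related adhesion genes, 8 were maternal only, 10 paternal only and 5 in both, and Cntn4 had 44 paternal peaks.

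The remaining classes covered transporters, immune signals, housekeeping genes and gene models. Of 378 solute carriers, 77 were maternal only, 66 paternal only and 24 in both. Of 83 interleukin and receptor genes, 19 were maternal only, 10 paternal only and 1 in both, which put 24.1% in the maternal and 13.3% in the paternal list, with overlapping intervals (16.2 to 34.3% and 7.56 to 22.2%), against 21.1% and 23.8% of all protein-coding genes. Il1b had 11 paternal peaks and Il6 2 maternal peaks. Of 89 ribosomal protein genes, 7 were maternal only, 11 paternal only and 3 in both, and of 59 Rab GTPases 8, 11 and 4. Of 1198 genes with a microRNA symbol, 99 were maternal only, 141 paternal only and 38 in both, with 10 maternal peaks for Mir181a-1 and 32 paternal peaks for Mir205. By annotated biotype the microRNA genes of the 3 sets numbered 97, 138 and 37. Of 2297 RIKEN gene models, 299 were maternal only, 327 paternal only and 118 in both, and of 21459 predicted Gm models 143, 208 and 65.

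Subunits of PRC1 were at 22.2% in each list and those of PRC2 at 8.33% in the maternal and 25% in the paternal list, against 21.1% and 23.8% of all protein-coding genes. Of 12 PRC2 subunits and partners, Aebp2 was maternal only with 2 peaks, and Jarid2 (4 peaks), Ezh2 (1) and Epop (1) were paternal only. Ezh2, the deleted gene, had 1 paternal and 0 maternal peaks in both genotypes, and peak lists do not show the deletion. Of 18 PRC1 subunits, Rnf2 (3 peaks), Rybp (3) and Phc2 (2) were maternal only, Cbx6 (1) and Cbx7 (1) were among the paternal-only genes, and Pcgf5 had 3 maternal peaks and 1 paternal peak.

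Of the 22 matched genes for other histone and DNA methylation enzymes, 6 were maternal only and 1 paternal only. That put 27.3% in the maternal list (interval 13.2 to 48.2%) and 4.55% in the paternal list (0.807 to 21.8%), overlapping intervals, against 21.1% and 23.8% of all protein-coding genes. The maternal-only genes were Tet2 with 4 peaks, Dnmt3a, Dnmt3b, Tet1 and Ehmt1 with 2 each, and Dnmt1 with 1. The paternal-only gene was Kdm4a, an H3K9 and H3K36 demethylase, with 1 peak. In the Ezh2m+/p+ lists Tet2 and Dnmt3b had 2 maternal peaks each and Dnmt3a 1, all without a paternal peak, and Dnmt1, Tet1, Ehmt1 and Kdm4a had no peak of either parent. Members with a maternal peak there numbered 6 of the 22 as well, and 0 had a paternal peak.

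Genes known to be imprinted by maternal H3K27me3, which are expressed from the paternal copy in early embryos, were at 55.6% in the maternal and 40.7% in the paternal list, against 21.1% and 23.8% of all protein-coding genes. Their median span was 61141 bp, against 17329 bp. Of 27 matched, 9 were maternal only, 5 paternal only and 6 in both. The maternal-only genes were Tle3, a corepressor (9 peaks), Rbms1 (7), Myo10 (6), Sfmbt2 (4) and Bmp2, Smoc1, Platr20, Mbnl2 and Jade1 (1 each). Paternal-only genes were Epas1, a hypoxia factor (28 peaks), Otx2 (26), Prox1 (19), Otog (1) and Clic6 (1). In both lists were Etv6 (6 maternal and 11 paternal), Gramd1b (2 and 12), Runx1 (5 and 1), Sall3 (2 and 3), Gab1 (1 and 1) and Platr4 (1 and 1). The list is small, and the interval of the maternal share was 37.3 to 72.4% against 24.5 to 59.3% for the paternal share.

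Of 57 canonical imprinted genes, 10 were maternal only, 7 paternal only and 6 in both. Their shares of 28.1% in the maternal and 22.8% in the paternal list had intervals that include those of all protein-coding genes, 21.1% and 23.8%. Grb10, a growth inhibitor, had 6 maternal and 2 paternal peaks, and Mirg, in the Dlk1 cluster, had 5 maternal peaks. Igf2r and Dlk1 had 2 maternal peaks each, and Airn and Kcnq1ot1, non-coding RNAs of imprinted clusters, 1 each. H13 had 4 paternal peaks and Slc22a3 and Zfp568 3 each, while Trappc9 had 3 of each parent.

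Oocyte and maternal-effect genes were at 18.8% in the maternal and 15.6% in the paternal list, with intervals that include the shares of all protein-coding genes (21.1% and 23.8%). Of 32 matched oocyte and maternal-effect genes, Lhx8, Nobox, Zp3r, Ooep and Dppa3 were maternal only with 1 peak each. Zp3r is a sperm protein that binds the zona pellucida and not an oocyte gene. Sohlh2 (4 peaks), Zp2, a zona pellucida protein (3), Npm2 (3) and Padi6 (1) were paternal only, and Kit, a receptor of oocyte growth, had 1 maternal and 7 paternal peaks. Of 27 matched genes of zygotic genome activation, 7.41% were in the maternal list (interval 2.06 to 23.4%) and 11.1% in the paternal list (3.85 to 28.1%). Among them, Nr5a2, a nuclear receptor, had 9 maternal and 0 paternal peaks, Klf17 3 paternal and Sp110 2 paternal peaks, and Klf4 3 and 5.

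Pluripotency and blastocyst lineage factors were at 40.9% in the maternal list (interval 23.3 to 61.3%) and 50% in the paternal list (30.7 to 69.3%). Over all protein-coding genes the shares were 21.1% and 23.8%. Of the 22 factors, 4 were maternal only (Eomes and Gata4 with 2 peaks, Sox17 and Esrrb with 1), 6 paternal only (Klf2 and Lin28a with 3, Elf5 with 2, and Tdgf1, Zfp42 and Prdm14 with 1) and 5 in both. The 5 were Klf5 (1 maternal and 32 paternal), Klf4, Tfcp2l1 (2 and 4), Gata6 (1 and 3) and Tfap2c (1 and 1).

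The parent of a gene's peaks was seldom exchanged between the genotypes. Of the 3784 genes that were maternal only in Ezh2m-/p+ zygotes, 1390 (36.7%, interval 35.2 to 38.3%) were also maternal only in Ezh2m+/p+ zygotes, 80 (2.11%) were paternal only, 49 (1.29%) were in both and 2265 (59.9%) had no peak. Of the 4495 paternal-only genes, 2915 (64.8%, 63.4 to 66.2%) were paternal only there, 88 maternal only, 311 (6.92%) in both and 1181 (26.3%) had no peak. Of the 1542 shared genes, 594 (38.5%) were shared there as well, 653 (42.3%) paternal only, 96 (6.23%) maternal only and 199 (12.9%) without a peak. The Ezh2m+/p+ lists were shorter, with 5744 maternal and 17863 paternal peaks. The paper gives more clean reads for the Ezh2m+/p+ H3K27me2 and input libraries than for those of Ezh2m-/p+ zygotes. The part of depth in the differences between the genotypes was not tested.

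Genes that were exchanged between the one-parent sets included Noct, Rorb and Bcl9l. Noct, a gene of circadian rhythm, had 3 paternal peaks in Ezh2m-/p+ and 4 maternal peaks in Ezh2m+/p+ zygotes, and Ahi1 and Il12b had 3 paternal and 2 maternal peaks. Dock1, Ppargc1b and Slc26a3 had 2 maternal peaks in Ezh2m-/p+ and 2 paternal peaks in Ezh2m+/p+ zygotes. Rorb, a nuclear receptor, had 6 paternal peaks against 1 maternal peak, and Bcl9l, a cofactor of Wnt signalling, and Nrcam, a neural adhesion protein, had 5 maternal peaks against 1 paternal peak. These genes were chosen after their values were seen.

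**Figure D5:**
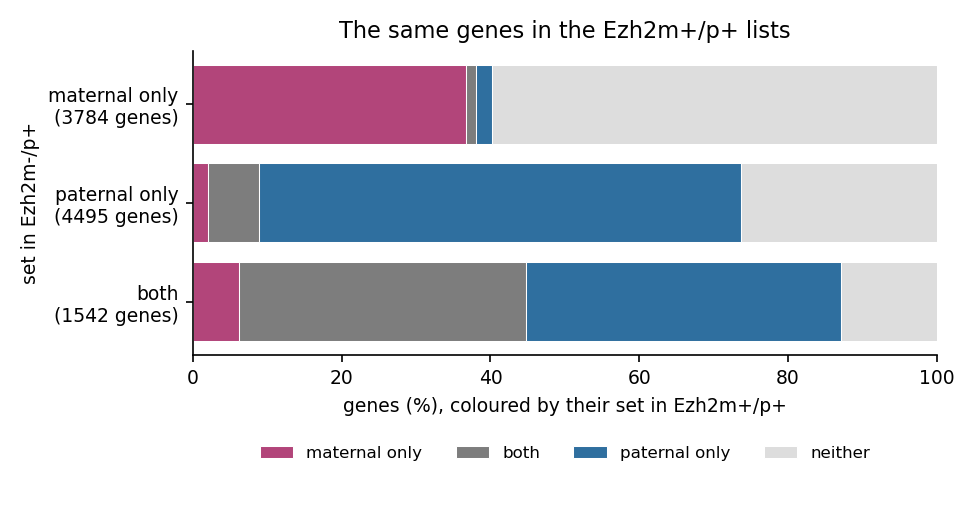
Genes of each set in Ezh2m-/p+ zygotes (bars), divided by their set in the Ezh2m+/p+ lists (x axis, % of the genes). Of the paternal-only genes 64.8% are in the same set there and of the maternal-only genes 36.7%, and 80 of the 3784 maternal-only and 88 of the 4495 paternal-only genes are in the opposite set.

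The fold of a peak, the listed ratio of H3K27me2 to input reads, was not on a common footing in the 2 lists. Maternal folds took 242 distinct values, and 77.8% of the maternal peaks lay on whole multiples of 0.765, to within 0.001 of a step. Paternal folds took 957 distinct values, the commonest being 63.0, with 2459 peaks. The paternal values 63.0, 78.8, 94.6 and 110 were spaced by 15.8, and a second series, 7.88, 9.85, 11.8 and 13.8, was among the commonest values too. A fold is therefore given above for single peaks, and levels were not compared between the parents by it. It does enter the cut of the paternal list and the limit of 10, so those settings take different kinds of peaks from the 2 lists. The lists hold no read numbers, so the depth behind a single peak is unknown.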

How the data were processed

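H3K27me2 was profiled by ULI-NChIP-seq in pooled PN5 zygotes, with 1 H3K27me2 and 1 input library per genotype. The authors trimmed reads (Trimmomatic 0.38), aligned them to mm10 (Bowtie2), kept unique alignments (SAMtools), removed duplicates (Picard), split reads by parental strain with SNPsplit and called peaks of each parental genome against the input with SICER. In the deposited peak lists the value of a peak is a ratio (fold) of H3K27me2 to input reads. All listed folds were over 5 and the shortest listed width was 999 bp. The authors' coverage values are fractions of a chromosome's length, 1 per parental genome and chromosome. Its 2 groups of MII oocytes (42 values) were not used.

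Genes were counted by the identifier listed for each peak, and 9809 of 9821 (99.9%) were matched to RefSeq genes of GRCm38. All peaks lay within GRCm38 chromosomes. Classes were defined by symbols or symbol patterns. The members and lists were chosen with earlier results of these data known. The genes named are the 10 with most peaks of each one-parent set, the 10 shared genes with the largest smaller number, the 5 most skewed to each parent, those of the 10 longest shared stretches, members of short lists, and up to 4 members with most peaks of each parent in larger classes. Some genes that this rule selects are not reported here. Shares carry 95% Wilson intervals, which cover counting only. The counting was tested on simulated lists. Results were recomputed with autosomes alone, peaks longer than 2000 bp, folds above 10, equal list sizes, gene body overlap, distal intergenic peaks left out and a reciprocal overlap of 50%. Python 3.11.15, numpy 2.4.6, pandas 2.3.3 and matplotlib 3.10.9 were used.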

Additional observations from a re-analysis of the deposited data

Results flagged for a closer look

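In 5 gene classes the list with the larger share of members differed between the genotypes. The difference between the genotypes was not tested, since each had 1 library. The maternal minus the paternal share of members was, for the sodium and calcium channels, 15 percentage points in the Ezh2m-/p+ lists and -5 in the Ezh2m+/p+ lists. It was 9.09 and -22.7 for the collagens, 5.61 and -5.61 for the other patterning transcription factors and 3.13 and -9.38 for the oocyte and maternal-effect genes. For the Rab GTPases it was -5.08 and 5.08. The Ezh2m-/p+ sign turned under some settings, to -1.87 for the other patterning factors with gene bodies, to -6.25 for the oocyte genes with peaks longer than 2000 bp and -3.13 with gene bodies, and to 3.39 for the Rab GTPases with the paternal list cut to 9606 peaks. It did not turn for the sodium and calcium channels and the collagens under the 6 settings tried. Over all protein-coding genes the values were -2.72 and -5.68.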

How the results depend on the processing

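The paternal list has more peaks than the maternal one, and cutting it to the 9606 of largest fold moved several values. The maternal-only, paternal-only and shared parts were then 52.3%, 34.4% and 13.3%, a paternal-list gene had a mean of 2.48 peaks, 54.5% of these genes had 1 peak and 33.7% of the paternal-only genes a promoter peak. Then 23 of 38 classes had the larger maternal share, and the Gm models turned to a maternal minus paternal difference of 0.112 percentage points. With folds above 10, the maternal-only and shared parts were 39.8% and 13.8%, 67.5% of maternal-list and 45.2% of paternal-list genes had 1 peak, 26.3% and 42.7% of the one-parent genes had a promoter peak, and 19 shared stretches lay in 1.67% of the shared genes. With peaks longer than 2000 bp, the 3 parts were 41.9%, 48.3% and 9.78%, the genes with 1 peak 71.6% and 52.1%, those with a promoter peak 25.5% and 43.5%, and 5 stretches lay in 0.633% of the shared genes. With gene bodies, the parts were 36.3%, 54.7% and 9.09%. Without distal intergenic peaks, the paternal-only and shared parts were 50.2% and 11.5%, and 70.3% and 47.6% of the genes had 1 peak. A reciprocal overlap of 50% left 5 stretches, in 0.324% of the shared genes. On autosomes these values moved by less than their intervals. The causes were not tested. No paired analysis was possible because each genotype has 1 library and no result comes from a test. The lists hold no read numbers, so the depth behind a peak is unknown, and a gene without a listed peak may have signal below the threshold.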
